A study of Mus musculus with 2 samples.

Results

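Areg, Ereg, Hbegf, Tgfa and Nrg1 encode ligands of the EGF family. These 5 genes were taken by name from the 32285 genes counted in both single-cell libraries, and their levels were described across cell classes named from marker genes and between the libraries. The study asked how loss of Dectin-1, a receptor for beta-glucans encoded by Clec7a, affects colorectal tumor development, and sorted the cells that had infiltrated polyps with antibodies to CD11b and CD11c. One library came from WT mice and the other from Clec7a-/- mice (labelled KO), with polyps of 5 and 4 mice pooled, respectively. Mice of both groups were C57BL6/J, 26 weeks old, and had been given the carcinogen azoxymethane (AOM) followed by 3 cycles of 1% dextran sodium sulfate (DSS) in drinking water, and polyps were taken 16 weeks after AOM. The Clec7a-/- line had been backcrossed to C57BL/6J for 9 generations. Clec7a itself was not analysed here, so the genotype labels were not checked against it. Each genotype is a single library, so nothing was tested: each interval below is an exact 95% interval that covers counting error only, and a difference between the libraries compares these libraries, not the genotypes.

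EGF-family ligands are made as membrane-bound precursors, and metalloproteases such as ADAM17 release the soluble factor, which then acts on neighboring cells. Areg, Ereg, Hbegf and Tgfa bind EGFR, the receptor through which intestinal epithelial cells are driven to divide and to close wounds, and Ereg and Hbegf also bind ErbB4. Nrg1 binds ErbB3 and ErbB4, so it reaches EGFR only as a partner in receptor pairs. In the gut these ligands come from epithelium, stroma and immune cells, and myeloid cells are known as a source during colitis and tumor growth.

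The ligands share a fold held by 6 cysteines, the EGF-like domain, which is the part that touches the receptor. The coding sequences of this domain are shown because they are what makes these genes one family, and because Nrg1 has 2 forms of it that a count per gene cannot separate. They were read from GENCODE M21 transcripts (GRCm38, the build of mm10) in coding direction, with the 6 cysteine codons in capitals. In each of the 4 genes shown an intron divides the domain, leaving the last 31 bases in a separate exon, and the domain of Hbegf was not analysed here. The Areg domain lies at chr5:91143614-91144364 on the plus strand, the Ereg domain at chr5:91088496-91089111 on the plus strand and the Tgfa domain at chr6:86263200-86269960 on the plus strand. The 2 Nrg1 forms lie on the minus strand of chromosome 8 and share the first 89 bases, at chr8:31849310-31849398. The form named beta ends in the exon at chr8:31837698-31837728 and was found in 7 transcripts, and the form named alpha ends at chr8:31838298-31838328 and was found in 4.
Areg: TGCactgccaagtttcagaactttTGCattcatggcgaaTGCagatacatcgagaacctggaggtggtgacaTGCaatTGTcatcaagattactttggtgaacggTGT
Ereg: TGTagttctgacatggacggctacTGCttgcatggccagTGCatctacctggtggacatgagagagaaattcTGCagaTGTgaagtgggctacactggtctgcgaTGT
Tgfa: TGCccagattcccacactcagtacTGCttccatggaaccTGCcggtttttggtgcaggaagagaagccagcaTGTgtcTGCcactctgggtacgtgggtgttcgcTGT
Nrg1 beta: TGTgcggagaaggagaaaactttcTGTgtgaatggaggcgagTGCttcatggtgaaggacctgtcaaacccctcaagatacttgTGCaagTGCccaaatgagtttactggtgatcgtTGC
Nrg1 alpha: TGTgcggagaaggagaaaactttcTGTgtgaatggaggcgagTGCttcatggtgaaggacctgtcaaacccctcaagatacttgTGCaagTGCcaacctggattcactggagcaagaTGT
The Areg and Ereg domains have the same bases at 58 of 108 positions, Areg and Tgfa at 51, and Ereg and Tgfa at 49. Ereg (ENSMUSG00000029377, chr5:91074622-91093646) and Areg (ENSMUSG00000029378, chr5:91139599-91148432) are neighbors, with 45952 bases and no annotated gene between them. Tgfa (ENSMUSG00000029999) lies at chr6:86195223-86275719, and Nrg1 (ENSMUSG00000062991) spans 1069479 bases at chr8:31814551-32884029.

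The deposited unique molecular identifier (UMI) counts held 3467 barcodes and 15869215 UMIs in the WT library and 3080 barcodes and 11808230 UMIs in the Clec7a-/- library. After the filter in the study's methods (200 to 4000 genes, at most 5% mitochondrial UMIs), 2696 WT and 1999 Clec7a-/- cells remained, with medians of 3412.5 and 2671 UMIs. The cells kept were 77.8% of WT and 64.9% of Clec7a-/- barcodes, most of the others being over the mitochondrial limit, and the ligands in those barcodes are described at the end. The libraries shared 17 barcode sequences, and 10 of these barcodes were kept in each library. Clustering without the ligand genes gave 15 clusters, of which 12 could be named from markers, falling into 10 classes. The sort was for myeloid cells, and cells with T cell, plasma cell and epithelial markers were present in both libraries. Class make-up differed: mature-DC-like cells, named from markers of activated dendritic cells (DCs) such as Fscn1, Ccr7 and Ccl22, were 10.3% of WT and 20.4% of Clec7a-/- cells, and neutrophil-like cells were 18.4% and 4.30%. Since every whole-library level moves with this make-up, each level is given within classes.

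Of the ligands, 3 were found in the cells kept and 2 were nearly absent. Nrg1 had 901 UMIs in 501 of 4695 cells, Areg 704 UMIs in 238 cells and Hbegf 425 UMIs in 209 cells. Ereg had 6 UMIs in 5 cells, and Tgfa had none, which allows a level of up to 0.151 CPM (UMIs scaled to the same total of 1000000). The 3 ligands differed in class pattern: most Areg UMIs lay in DCs, most Hbegf UMIs in macrophages, and Nrg1 UMIs in part of the DCs and in the monocyte lineage. The patterns overlapped, since a DC cluster held both Areg and Nrg1 and a macrophage cluster both Hbegf and Nrg1.

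**Figure D1:**
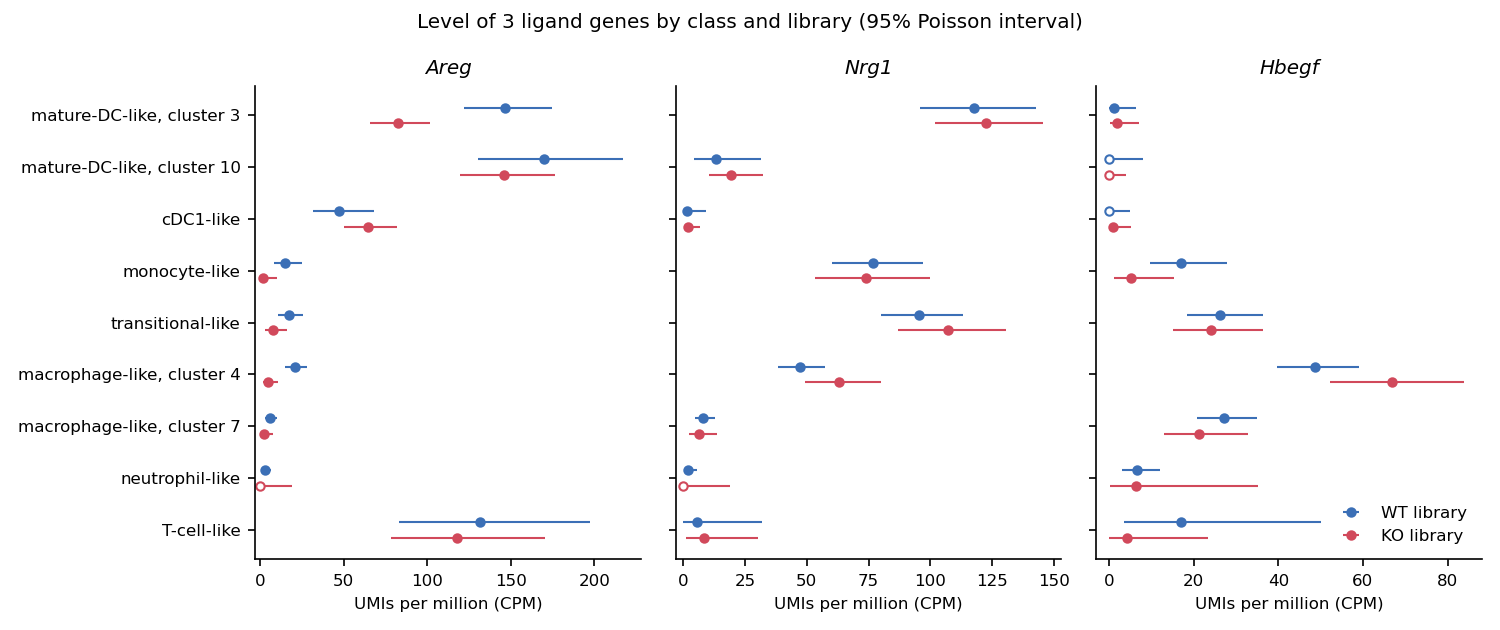
Level of Areg, Nrg1 and Hbegf in CPM (horizontal axis, a separate scale for each gene) in 9 classes or clusters (vertical axis), with WT in blue and Clec7a-/- (KO) in red. Points are UMIs scaled to the total of that class in that library, bars are exact 95% Poisson intervals, and open points are counts of 0, whose bar ends at the level of 3 counts. Of the groups shown, Areg was highest in the mature-DC-like clusters and T-cell-like cells, Nrg1 in cluster 3, transitional-like and monocyte-like cells, and Hbegf in macrophage-like cluster 4.

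Areg encodes amphiregulin, a low-affinity EGFR ligand made by activated immune cells and epithelium. Mature-DC-like cells held 189 Areg UMIs (153 CPM, 132 to 177) in the WT library and 190 UMIs (109 CPM, 93.8 to 125) in the Clec7a-/- library. They made up 10.0% and 23.1% of all UMIs and held 50.5% and 57.6% of the Areg UMIs. The class joined 2 clusters. In cluster 3, led by Tbc1d4, Fscn1 and Siglecg, the level was 147 CPM in WT and 82.2 CPM in Clec7a-/- cells. In cluster 10, led by Laptm4b, Il12b and Bcl2l14, it was 170 CPM (130 to 217) and 146 CPM (119 to 176). Clusters 3 and 10 differed by less than counting error in the WT library (log2 ratio -0.21, -0.66 to 0.25), and in the Clec7a-/- library cluster 3 was lower (-0.83, -1.26 to -0.40).

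The cDC1-like cells, led by Itgae and Xcr1 as is the DC type that cross-presents antigen, had 29 Areg UMIs (47.4 CPM) in WT and 69 UMIs (64.4 CPM) in Clec7a-/- cells. They lay below the mature-DC-like cells in both libraries, with a log2 ratio of mature over cDC1 of 1.70 (1.13 to 2.31) in WT and 0.75 (0.35 to 1.17) in Clec7a-/- cells. Clustering at a resolution higher by 0.4 divided cluster 3 in 2. The first portion was named mature-DC-like again, with Fscn1 at 1647 CPM over both libraries, and held 208 Areg CPM in WT and 115 CPM in Clec7a-/- cells. The other portion was named cDC2-like, with Fscn1 at 82.8 CPM, and held 98.5 and 58.6 CPM. The cDC2-like portion was the larger, with 301 cells against 212, so the mature-DC-like class of 686 cells holds many cells that the finer clustering named otherwise. Ccr7 was at 2333 CPM in the cDC2-like portion, both libraries summed. Cd209a and Mgl2, markers of cDC2, were at 29.8 and 299 CPM there, and at 0 and 79.5 CPM in the portion named mature-DC-like. Flt3, listed both for cDC2 and for DCs in general, went the other way, at 74.5 CPM in the cDC2-like portion against 275 CPM. Areg was thus found in each DC class that could be named. The cDC1-like cells also carried mature DC markers, whose 6 genes summed to 2864 CPM in WT and 2208 CPM in Clec7a-/-. The 6 cDC1 markers summed to 1296 and 1385 CPM there. The part of this overlap in their Areg level was not tested.

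T-cell-like cells were few, 67 in WT and 121 in Clec7a-/-, and had 131 Areg CPM (23 UMIs in 8 cells) and 118 CPM (28 UMIs in 12 cells). Their level could not be told from that of mature-DC-like cells in either library (log2 ratio of mature-DC-like over T-cell-like 0.22, -0.40 to 0.92, and -0.12, -0.70 to 0.51). Amphiregulin is known as a product of regulatory T cells, which carry Foxp3. Over both libraries, 12 Areg UMIs lay in the 75 cells of this class with a Foxp3 UMI (62.0 CPM, 32.0 to 108) and 39 in the 113 cells without one (178 CPM, 127 to 244). The shares of cells with an Areg UMI overlapped, at 9.33% (3.84 to 18.3) with a Foxp3 UMI and 11.5% (6.27 to 18.9) without. By library, the Areg level with and without a Foxp3 UMI was 96.5 CPM (41.7 to 190) and 163 CPM (91.1 to 268) in WT, and 36.1 CPM (9.84 to 92.5) and 190 CPM (121 to 282) in Clec7a-/-. In WT, 1 cell held 12 of the 15 UMIs found without a Foxp3 UMI. In Clec7a-/-, 2 cells held 42.9% of the 28 Areg UMIs of the class. At median depths of 2058 UMIs in WT and 1552 in Clec7a-/-, a cell without a Foxp3 UMI need not lack Foxp3.

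Monocyte-lineage cells held far less Areg. Macrophage-like cells, named from C1q genes, Apoe and Mrc1, had 56 UMIs in 23 of 533 cells (13.1 CPM, 9.88 to 17.0) in WT and 7 UMIs in 4 of 300 cells (3.44 CPM, 1.38 to 7.09) in Clec7a-/-. Transitional-like cells, named from markers of cells passing from monocyte to macrophage such as Ccl24, Mmp19 and Arg1, had 24 UMIs (17.1 CPM) and 7 UMIs (7.65 CPM). Of the 6 markers listed for this type, 4 were raised in their cluster. The 6 summed to 8116 CPM in WT and 6990 CPM in Clec7a-/- transitional-like cells. The sums were 11353 and 11178 CPM in monocyte-like cells, and 6665 and 8636 CPM in neutrophil-like cells. Monocyte-like cells had 14 Areg UMIs in 4 cells (15 CPM) and 1 UMI (1.76 CPM). Neutrophil-like cells had 4 UMIs in 497 WT cells (2.64 CPM) and none in 86 Clec7a-/- cells, which allows up to 19.0 CPM. In the monocyte-like, transitional-like and macrophage-like cells the Clec7a-/- value was the lower. Plasma-cell-like cells, which are not known to make Areg, had no UMI in 32 cells, which allows a share of cells with a UMI of up to 9.38%, and mast-cell-like cells had none in 21.

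Few cells carried most of the Areg UMIs. In WT mature-DC-like cells, 51 of 279 cells (18.3%, 13.9 to 23.3) had a UMI, and 13 cells with at least 5 UMIs held 58.7% of the UMIs. In the Clec7a-/- library, 52 of 407 cells (12.8%, 9.69 to 16.4) had one, and 12 such cells held 53.7%. With each cell thinned to 1000 UMIs, which left out 26 WT and 27 Clec7a-/- cells below that depth, the shares were 8.30% (5.21 to 12.4) and 6.05% (3.88 to 8.94), at median depths of 3974 and 3911 UMIs before thinning. Neutrophil-like cells, at a median of 2801 UMIs, had none in 494 WT cells when thinned, which allows a share of thinned cells with a UMI of up to 0.607%. These bounds cover detection and not expression. Because UMIs of one cell are not independent, the intervals on CPM are narrower than the spread between cells would give.

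**Figure D2:**
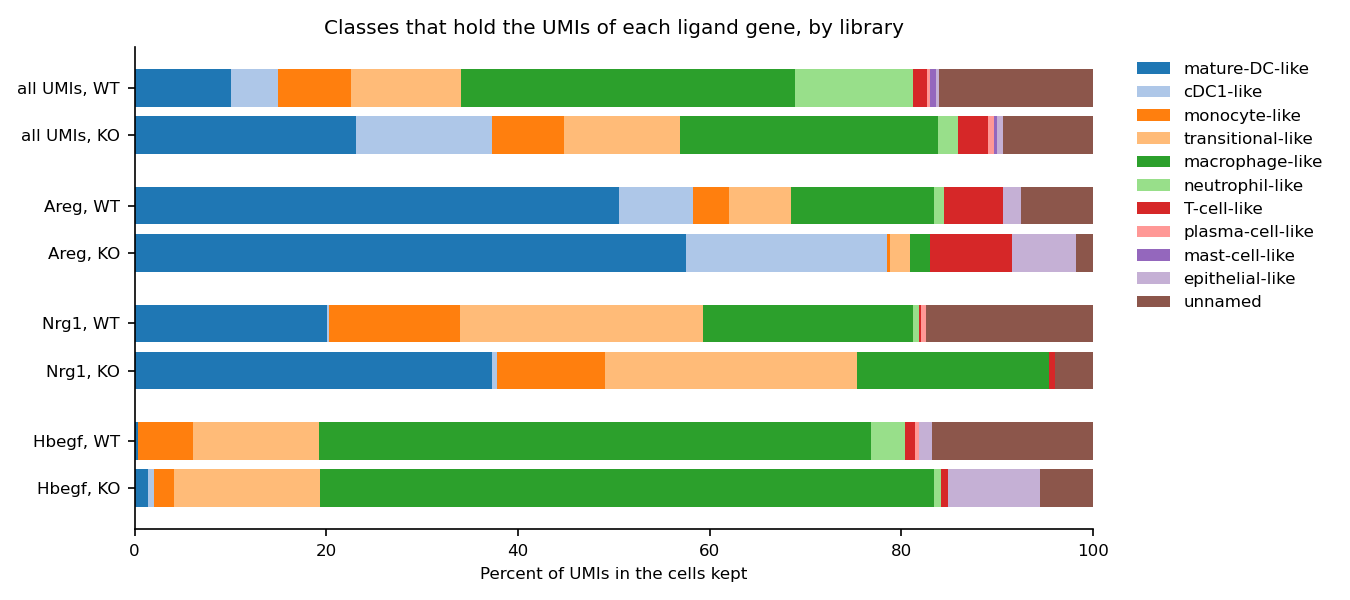
Percent of UMIs (horizontal axis) that each class held in the cells kept, for all UMIs and for Areg, Nrg1 and Hbegf, one bar per library (vertical axis, KO is Clec7a-/-), with classes in colors. Mature-DC-like and cDC1-like cells together held 58.3% of Areg UMIs in WT and 78.5% in Clec7a-/-, against 15% and 37.3% of all UMIs.

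Between the libraries, Areg was higher in the Clec7a-/- library taken as a whole and lower in most of its classes. The whole-library level was 30.4 CPM (374 UMIs) in WT and 43.7 CPM (330 UMIs) in Clec7a-/-, a log2 ratio of 0.52 (0.30 to 0.74) over a median of 0.15 for all genes tested. The classes of the Clec7a-/- library were then weighted by the class make-up of the WT library, taken as shares of UMIs and not of cells. The Clec7a-/- level became 20.6 CPM, a log2 ratio to WT of -0.56 (-0.79 to -0.34). This interval is by a normal approximation, as for the weighted ratios of the other ligands. Within classes, the log2 ratio of Clec7a-/- over WT was -0.50 (-0.80 to -0.20) in mature-DC-like cells, 0.44 (-0.20 to 1.12) in cDC1-like cells and -0.15 (-1.0 to 0.71) in T-cell-like cells. It was -1.16 (-2.62 to 0.10) in transitional-like and -1.93 (-3.31 to -0.79) in macrophage-like cells. Of the mature-DC-like clusters, cluster 3 was at -0.83 (-1.25 to -0.42) and cluster 10 at -0.22 (-0.68 to 0.26), an interval that holds 0. Both macrophage-like clusters had the lower value in Clec7a-/-. Cluster 4 had 20.7 CPM in WT and 4.57 CPM in Clec7a-/- (log2 ratio -2.18, -3.87 to -0.85). Cluster 7 had 5.90 and 2.13 CPM on 13 and 2 UMIs (-1.47, -4.66 to 0.67), an interval that holds 0. Across monocyte-like, transitional-like and macrophage-like cells together, a grouping made after the values were seen, 94 UMIs in 1195 WT cells (14.2 CPM) stood against 15 in 773 Clec7a-/- cells (4.26 CPM), a log2 ratio of -1.74 (-2.63 to -0.94).

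One WT macrophage-like cell held 17 of the 56 Areg UMIs. With the cell richest in Areg left out in each library, the log2 ratio in this class was -2.62. This also took UMIs from the 7 of the Clec7a-/- library. The ratio with the WT cell alone left out was not computed. Markers of other types were also present in the macrophage-like cells: the 6 mature DC markers summed to 115 CPM in WT and 82.6 CPM in Clec7a-/- macrophage-like cells, against 7553 and 8206 CPM in mature-DC-like cells, and the 6 epithelial markers to 14.0 and 19.7 CPM. Of those 12 markers, 1 mature DC marker was at 0 in the Clec7a-/- cells. The 10 neutrophil markers summed to 1435 and 961 CPM there, with 1 at 0 in Clec7a-/- cells. Mmp9, 1 of these 10 markers, was also among the leading genes of macrophage-like cluster 4. In mature-DC-like cells, where Areg was lower in Clec7a-/- as well, the neutrophil markers summed to 1259 CPM in WT and 316 CPM in Clec7a-/-, with none at 0, and the epithelial markers to 33.3 and 17.7 CPM, with 1 at 0 in Clec7a-/-. The part of these markers in the results was not tested.

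**Figure D3:**
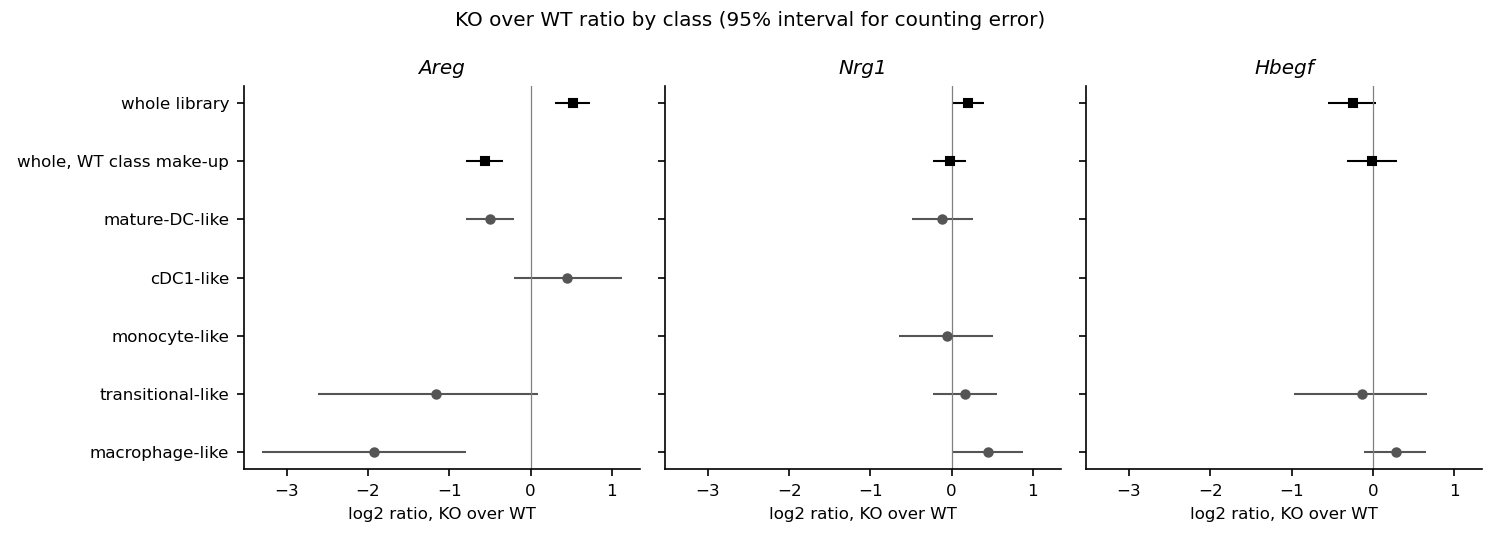
Log2 ratio of Clec7a-/- (KO) over WT (horizontal axis) for Areg, Nrg1 and Hbegf in the whole library, in the whole library weighted to the WT class make-up (both as squares), and in up to 5 myeloid classes, where the gene had at least 20 UMIs (circles); bars are 95% intervals for counting error. Areg lies at 0.52 in the whole library and at -0.56 after weighting, and the Nrg1 and Hbegf values after weighting, -0.02 and -0.01, have intervals that hold 0.

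A cutoff of 1 on the log2 ratio, among genes with at least 20 UMIs, puts these values beside those of all genes. In macrophage-like cells 1 of 3 ligands passed it (Areg), where 3.4% of 9151 genes did in either direction. In transitional-like cells 1 of 3 passed (Areg), with 4.81% of genes. None of 3 passed in the whole library (7.88% of genes), none of 2 in mature-DC-like cells (4.87%), and the only ligand with 20 UMIs passed neither in cDC1-like cells (Areg, 7.51%) nor in monocyte-like cells (Nrg1, 5.98%). Nothing particular to the ligands is read from these counts.

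Hbegf (ENSMUSG00000024486) encodes heparin-binding EGF-like growth factor, which binds EGFR and ErbB4 and is known as a product of macrophages. Macrophage-like cells held 161 Hbegf UMIs (37.6 CPM, 32.0 to 43.9) in WT and 93 UMIs (45.7 CPM, 36.9 to 56.0) in Clec7a-/-, which was 57.5% and 64.1% of the gene's UMIs. Cluster 4, led by Ppbp, Pgf and Adamdec1, was the higher of the 2 clusters. It had 48.7 CPM in WT and 66.7 CPM in Clec7a-/-, while cluster 7, led by Mfge8, Olfml3 and Igf1, had 27.2 and 21.3 CPM. The difference between the clusters was larger than counting error in each library (log2 ratio 0.84, 0.36 to 1.32, in WT and 1.65, 0.92 to 2.44, in Clec7a-/-).

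Below the macrophage-like cells came transitional-like cells, with 37 Hbegf UMIs (26.4 CPM) in WT and 22 UMIs (24.0 CPM) in Clec7a-/-. Monocyte-like cells had 16 UMIs (17.1 CPM) and 3 UMIs (5.27 CPM), and neutrophil-like cells 10 UMIs (6.61 CPM) and 1 UMI (6.34 CPM). The log2 ratio of monocyte-like over neutrophil-like cells was 1.37 (0.14 to 2.67) in WT and -0.27 (-3.91 to 5.45) in Clec7a-/-. Macrophage-like and transitional-like cells could not be told apart in WT (0.51, -0.01 to 1.07), nor could transitional-like and monocyte-like cells (0.62, -0.26 to 1.57). In the Clec7a-/- library both steps were larger than counting error (0.93, 0.25 to 1.67, and 2.19, 0.46 to 4.57). DCs held next to none, with 1 Hbegf UMI in 362 WT and 3 in 565 Clec7a-/- mature-DC-like and cDC1-like cells.

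Between the libraries the intervals of Hbegf held 0 in both named classes that held most of it, but not in every cluster. The log2 ratio of Clec7a-/- over WT was 0.28 (-0.10 to 0.66) in macrophage-like cells and -0.13 (-0.96 to 0.67) in transitional-like cells, and -0.25 (-0.55 to 0.05) in the whole library, where 22.8 CPM stood against 19.2 CPM. The transitional-like value was below 0 in 7 of 14 alternative settings. Within macrophage-like cells, cluster 4 was at 0.46 (0.00 to 0.90) and cluster 7 at -0.36 (-1.16 to 0.39). Weighted to the WT class make-up, the whole-library ratio was -0.01 (-0.31 to 0.30). The share of macrophage-like cells with a UMI after thinning was 3.55% (2.12 to 5.55) in WT and 3.56% (1.72 to 6.45) in Clec7a-/-, and without thinning 11.3% and 12.3%, against 1.01% of thinned WT neutrophil-like cells. In cluster 5, shallow cells with neutrophil markers that could not be named, Hbegf had 13 UMIs in 175 WT cells (56.9 CPM) and 1 UMI in 317 Clec7a-/- cells (3.11 CPM), a log2 ratio of -4.19 (-9.60 to -1.46). All unnamed cells together had 47 WT and 8 Clec7a-/- UMIs (23.8 and 11.3 CPM), at -1.07 (-2.36 to 0.02). In monocyte-like cells the log2 ratio was -1.70 (-4.12 to 0.11).

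Nrg1 encodes neuregulin-1, known in the gut as a growth factor for stem and progenitor cells. It had the most UMIs of the 5 genes. Transitional-like cells held 134 UMIs (95.4 CPM, 80.0 to 113) in WT and 98 UMIs (107 CPM, 86.9 to 131) in Clec7a-/-. By level mature-DC-like cells came next, with 106 UMIs (86.1 CPM) and 139 UMIs (79.5 CPM). Monocyte-like cells had 72 UMIs (77.0 CPM) and 42 UMIs (73.8 CPM), a step from transitional-like cells that was within counting error in WT (0.31, -0.11 to 0.74) and just beyond it in Clec7a-/- (0.54, 0.00 to 1.10). With each cell thinned to 1000 UMIs, 6.90% (4.37 to 10.3) of WT and 8.62% (5.35 to 13) of Clec7a-/- transitional-like cells had a UMI, against 0.202% of 494 WT neutrophil-like cells.

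The 2 mature-DC-like clusters differed widely in Nrg1, although both held Areg. Cluster 3 had 101 UMIs (117 CPM) in WT and 125 UMIs (122 CPM) in Clec7a-/-, close to the transitional-like level, and cluster 10 had 5 UMIs (13.5 CPM) and 14 UMIs (19.3 CPM). The log2 ratio of cluster 3 over cluster 10 was 3.13 (1.86 to 4.78) in WT and 2.67 (1.87 to 3.58) in Clec7a-/-. In the finer clustering, both the portion of cluster 3 high in Fscn1 (142 and 157 CPM in WT and Clec7a-/-) and the cDC2-like portion (88.0 and 97.1 CPM) carried Nrg1. Xcr1, which marks cDC1, was at 254 CPM in the finer counterpart of cluster 10 and at 6.31 CPM in the Fscn1-high and 7.45 CPM in the cDC2-like portion of cluster 3, both libraries summed. The cDC1-like cells themselves had 1 Nrg1 UMI in WT and 2 in Clec7a-/-. So Nrg1 was higher in the DC cluster low in Xcr1 than in cluster 10, which carried it, in both libraries. Of the 171 cells in the finer counterpart of cluster 10, 81 had an Xcr1 UMI, and Nrg1 was not counted in these alone.

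The macrophage-like clusters differed in Nrg1 as well. Cluster 4 had 98 UMIs (47.2 CPM) in WT and 69 UMIs (63.1 CPM) in Clec7a-/-, and cluster 7 had 18 UMIs (8.17 CPM) and 6 UMIs (6.38 CPM). The log2 ratio between them was 2.53 (1.80 to 3.34) and 3.31 (2.11 to 4.80), a wider step than for Hbegf. Cluster 6, which carried neutrophil and monocyte markers together and could not be named, had 54.8 and 48.0 CPM. Neutrophil-like cells had 3 UMIs in 583 cells of both libraries. Plasma-cell-like cells had 3 UMIs, all in 1 WT cell.

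Within classes the log2 ratios of Nrg1 were small. The interval left out 0 in macrophage-like cells taken as a class, but in neither of the clusters that make up the class. The log2 ratio of Clec7a-/- over WT was -0.12 (-0.49 to 0.26) in mature-DC-like, -0.06 (-0.65 to 0.51) in monocyte-like, 0.17 (-0.22 to 0.55) in transitional-like and 0.44 (0.01 to 0.88) in macrophage-like cells. The macrophage-like clusters pointed in opposite directions, cluster 4 at 0.42 (-0.05 to 0.88) and cluster 7 at -0.36 (-1.98 to 1.04). Both mature-DC-like clusters were above 0, cluster 3 at 0.06 (-0.33 to 0.45) and cluster 10 at 0.52 (-1.04 to 2.34). Class values thus also move with the cluster make-up of the class. Across the 3 monocyte-lineage classes together the log2 ratio was 0.33 (0.07 to 0.58), with 48.6 CPM in WT and 61.1 CPM in Clec7a-/-. This grouping was made after the values were seen, and its ratio was not weighted for class make-up. Macrophage-like cells, the lowest of these classes in Nrg1, held 34.8% of all WT and 26.9% of all Clec7a-/- UMIs. In the cells that could not be named the log2 ratio was -1.13 (-2.03 to -0.34), with 46.6 and 21.2 CPM, and clusters 5 and 6 among them were at 0.51 (-3.76 to 6.39) and -0.19 (-1.20 to 0.69). In the whole library 43.0 CPM stood against 49.3 CPM, a log2 ratio of 0.20 (0.00 to 0.39), near the median of all genes, and -0.02 (-0.23 to 0.18) with the WT class make-up.

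In the same cells, Areg and Nrg1 were seldom detected together. Among 633 mature-DC-like cells thinned to 1000 UMIs, 44 had an Areg UMI, 37 an Nrg1 UMI and 1 had both. Areg was found in 2.70% (0.0684 to 14.2) of the cells with Nrg1 and in 7.21% (5.27 to 9.60) of those without, ranges that overlap. In macrophage-like cells, 28 of 788 thinned cells had Hbegf, 21 had Nrg1 and 1 had both. Whether separate cells make the ligands was not detectable at this depth.

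The rest of the family and the pathway were counted from a list of 6 further ligands, 4 receptors, 5 shedding genes and 10 genes of prostaglandin E2 (PGE2) and cAMP. The last list joins genes of PGE2 synthesis (Ptgs2 and Ptges), PGE2 receptors (Ptger2 and Ptger4) and genes of the response. Egf was the only further ligand with more than 12 UMIs, with 42 UMIs in WT and 67 in Clec7a-/- cells. In mature-DC-like cells it had 24.4 and 29.2 CPM and in cDC1-like cells 19.6 and 14.0 CPM, and it had no UMI in monocyte-like, transitional-like or macrophage-like cells. Its whole-library log2 ratio was 1.37 (0.80 to 1.97), and that in mature-DC-like cells was 0.26 (-0.42 to 0.96). Nrg4 had 12 UMIs, Epgn 4 and Btc 1, and Nrg2 and Nrg3 had none.

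Receptors were almost absent from the cells kept: Egfr had 4 UMIs, Erbb2 2, Erbb3 8 and Erbb4 none, and 3 of the Egfr UMIs lay in epithelial-like cells. The machinery that releases the ligands was present. Adam17, the main sheddase, had 259 CPM in WT and 269 CPM in Clec7a-/- macrophage-like cells and 123 and 126 CPM in mature-DC-like cells. Rhbdf2, which encodes iRhom2 and carries ADAM17 to the cell surface, had 70.6 and 61.0 CPM in macrophage-like and 27.6 and 25.2 CPM in mature-DC-like cells. None of the 5 shedding genes passed the cutoff of 1 in the whole library or in macrophage-like cells, with medians of -0.19 and -0.06 over the list against 0.15 for all genes tested in the whole library and -0.00 in macrophage-like cells. In mature-DC-like cells 1 of 5 passed, Rhbdf1, on 5 and 18 UMIs. Of all genes tested, 7.88% passed in the whole library, 3.4% in macrophage-like and 4.87% in mature-DC-like cells.

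**Figure D4:**
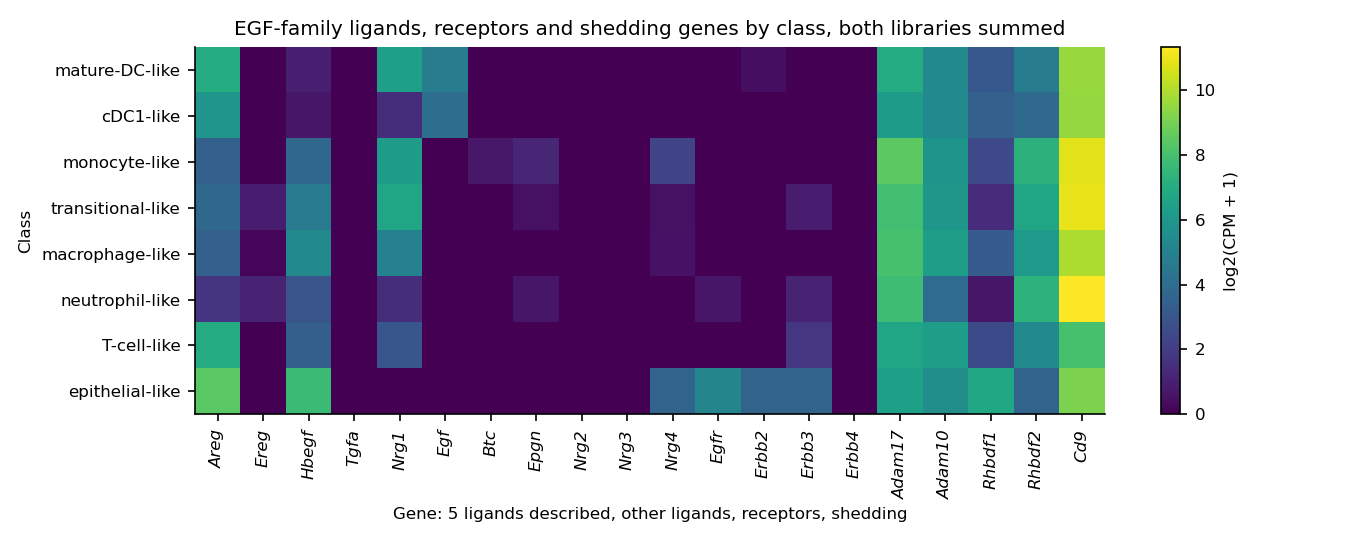
Level, as log2(CPM + 1) in color, of the 5 ligands, other EGF-family ligands, receptors and shedding genes (horizontal axis) in 8 classes (vertical axis), both libraries summed. Areg, Nrg1 and Egf stand out in mature-DC-like cells, Hbegf and Nrg1 in the monocyte lineage, and in epithelial-like cells, where Areg and Hbegf are highest, the receptor values rest on 3 Egfr, 1 Erbb2 and 1 Erbb3 UMIs.

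Areg is known to rise with PGE2 and cAMP, so its promoter is shown beside the genes of that list. The 250 bases before its RefSeq start (GRCm38.p6, chr5:91139349-91139598, plus strand) hold a cAMP response element and a TATA box, in capitals.
Areg promoter: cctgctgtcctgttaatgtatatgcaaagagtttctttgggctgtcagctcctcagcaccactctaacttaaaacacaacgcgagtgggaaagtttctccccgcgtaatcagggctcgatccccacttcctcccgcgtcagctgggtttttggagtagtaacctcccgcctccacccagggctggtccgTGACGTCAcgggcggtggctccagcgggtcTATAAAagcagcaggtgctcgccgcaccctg
The element TGACGTCA begins 61 bases before the start. It is found on either strand in the same window of 1.55% of 32851 RefSeq promoters. TATAAA is found in 12.4% when both strands are searched, and in 7.59% in the printed direction, as it is here. The AP-1 pattern TGANTCA, found in 6.75%, is not in this window. None of these motifs overlap here, and a match is a description of the letters and not of binding.

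Of the 10 genes of the PGE2 and cAMP list, 6 were higher in mature-DC-like than in macrophage-like cells in both libraries (Ptger4, Crem, Nr4a1, Nr4a2, Nr4a3 and Pde4b), 3 were lower in both (Ptger2, Ptgs2 and Sik1) and 1, Ptges, differed in direction. The share of all genes with either order was not counted, so nothing particular to the list is read from these counts. The Ptger2 and Ptges values rest on 2 to 35 UMIs per class and library. Ptger4, a PGE2 receptor that raises cAMP, had 357 CPM in WT and 379 CPM in Clec7a-/- mature-DC-like cells and 18.5 and 15.7 CPM in macrophage-like cells. Nr4a3, a nuclear receptor induced by cAMP, had 1762 and 1786 CPM in mature-DC-like and 121 and 103 CPM in macrophage-like cells. Crem, itself a cAMP-induced regulator, had 1294 and 1233 CPM against 743 and 501 CPM. Areg had the same order as Ptger4, Nr4a3 and Crem, and Crem was higher still in T-cell-like cells (1673 and 1778 CPM). Sik1 had the opposite order, with 26.8 and 25.7 CPM in mature-DC-like and 86.0 and 87.5 CPM in macrophage-like cells. Ptgs2, which encodes COX-2 and starts PGE2 synthesis, was highest in transitional-like cells (684 and 390 CPM). In the whole library 2 of 10 genes passed the cutoff of 1, with Ptger4 higher (1.02) and Ptgs2 lower (-1.09) in Clec7a-/-, and a median of 0.08 against 0.15 for all genes. In macrophage-like cells, where Areg was lower, Ptgs2 (289 and 138 CPM) and Ptges (8.18 and 3.44 CPM) passed, both lower in Clec7a-/-. Both are genes of PGE2 synthesis, none of the response genes passed there, and the median was -0.23 over 9 genes. In mature-DC-like cells Ptgs2 alone passed of 8 genes (229 and 92.1 CPM, lower in Clec7a-/-), and in transitional-like cells Nr4a1 alone of 9, higher in Clec7a-/-. Of all genes tested, 7.88% passed in either direction in the whole library. The shares were 3.4% in macrophage-like, 4.87% in mature-DC-like and 4.81% in transitional-like cells. Whether the genes of the PGE2 and cAMP list and Areg are linked was not tested. Sums of 10 immediate-early and stress genes, which can rise as tissue is digested, were 2194 and 2676 CPM in macrophage-like and 1918 and 2210 CPM in mature-DC-like cells, higher in Clec7a-/- in both. They were also higher in monocyte-like, transitional-like, neutrophil-like and plasma-cell-like cells. The sums were lower in Clec7a-/- in cDC1-like (2325 and 2126 CPM), T-cell-like (2656 and 2280 CPM), mast-cell-like and epithelial-like cells. Their part in the ligand levels was not tested.

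Likeness of pattern was measured as Pearson's r of log2(CPM + 10) over the 10 named classes in 2 libraries, 20 points that share library and depth, among genes with at least 100 UMIs. Closest to Areg were Lad1 (0.92), Sdcbp2 (0.91) and Slc25a24 (0.90). Closest to Hbegf were Sqor (0.93), Akr1b8 (0.90) and Pgap1 (0.87), and closest to Nrg1 were Sphk1 (0.89), Timm8b (0.87) and Prkcd (0.86). Some of these points rest on fewer than 20 cells.

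The barcodes removed by the filter held Tgfa, which was missing from the cells kept. Ereg stayed rare there, with 9 UMIs in 6 removed barcodes (1.15 CPM) over both libraries. Over 5% of UMIs were mitochondrial in 729 WT and 1057 Clec7a-/- barcodes, and these carried 299 and 331 Areg, 190 and 112 Hbegf, 36 and 71 Nrg1, 5 and 3 Ereg, and 40 and 13 Tgfa UMIs. Of these barcodes, 257 had UMIs of at least 2 of 6 epithelial markers (Epcam, Krt8, Krt18, Krt19, Cdh1 and Lgals4), and they held 51 of the 53 Tgfa UMIs and 7 of the 8 Ereg UMIs. Tgfa is known as an autocrine ligand of epithelium. Its level in these barcodes was 66.5 CPM (47.0 to 91.3) in WT and 29.9 CPM (15.9 to 51.0) in Clec7a-/-, and that of Areg was 360 CPM (313 to 413) and 237 CPM (193 to 287). Hbegf was at 245 and 186 CPM, and Nrg1 had 3 UMIs in all. Their median share of mitochondrial UMIs was 16.3% in WT and 16.9% in Clec7a-/-.

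**Figure D5:**
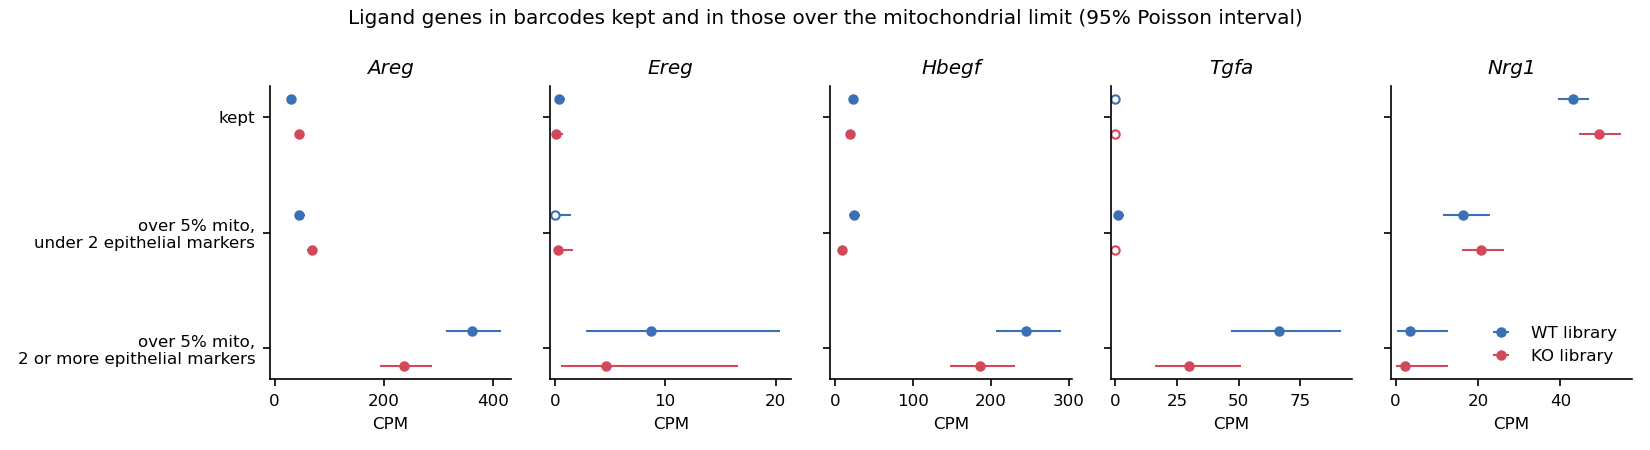
CPM of the 5 ligands (horizontal axis, a separate scale for each gene) in the cells kept and in barcodes over 5% mitochondrial UMIs with under 2, or with 2 or more, of 6 epithelial markers (vertical axis), WT in blue and Clec7a-/- (KO) in red with 95% Poisson intervals and open points for counts of 0. Tgfa, Ereg, Areg and Hbegf are highest in the barcodes with epithelial markers, where Tgfa reached 66.5 and 29.9 CPM, and Nrg1 is highest in the cells kept.

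The remaining barcodes over 5% carried 93 Areg UMIs (45.1 CPM) in WT and 228 (67.5 CPM) in Clec7a-/-, and 2 and 0 Tgfa UMIs. Clustering with no mitochondrial limit gave 262 epithelial-like barcodes of both libraries, and they held all 35 Tgfa UMIs of the barcodes clustered, 7 of 14 Ereg, 271 of 1272 Areg, 186 of 673 Hbegf and 1 of 1004 Nrg1 UMIs, and also 31 of 34 Egfr UMIs. Among cells kept, the 18 WT and 12 Clec7a-/- epithelial-like cells had 198 Areg CPM (7 UMIs) in WT and 440 CPM (22 UMIs) in Clec7a-/-, and 113 and 280 Hbegf CPM on 4 and 14 UMIs. These are levels of cells that passed a CD11b and CD11c sort, and their number says nothing about the epithelium of the polyps.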

How the data were processed

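Single-cell RNA-seq of sorted polyp-infiltrating cells gave 1 library per genotype. The authors deposited raw UMI counts per gene and barcode, and the submitters' processing notes name Cell Ranger 2.1.1 and mm10. The study's methods and the labels' protocol name a SeekOne kit for both libraries, while the labels' description names 10x Genomics. The filter of the study's methods (200 to 4000 genes, no more than 5% of UMIs mitochondrial) was applied to barcodes. Both libraries were clustered together with Seurat 5.3.0 (R 4.3.3; 2000 variable features, 20 principal components, smallest resolution giving at least 15 clusters) without the listed genes. A cluster was named where its markers had a mean log2 fold of at least 1, a lead of 0.5 over the next type and at least 3 markers; these limits were set after the clusters were seen. Scrublet called no doublet, so none was removed. The members and lists were chosen with earlier results of these data known.

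Levels are UMIs scaled to a total of 1000000 in the class (CPM), with exact Poisson intervals; ratios have exact conditional and shares exact Clopper-Pearson intervals (scipy 1.17.1, Python 3.11.15), all 95% and for counting error only, and a count of 0 is bounded by 3 counts. No test was run. Counts past a log2 ratio of 1 used genes with at least 20 UMIs and 0.5 UMIs added; TMM scaling (edgeR 4.0.16) was an alternative. Genes named are the 5 ligands, the fixed lists and markers, and for each ligand with at least 100 UMIs the 3 genes of most similar pattern. Sequences came from GENCODE M21 and RefSeq, where 2 of the 5 ligands had a promoter entry. Simulated counts were used to check the interval code.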

Additional observations from a re-analysis of the deposited data

Results flagged for a closer look

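The log2 ratio of Clec7a-/- over WT pointed in opposite directions in different classes for each of the 3 ligands that could be compared, in the reported clustering, and the differences between classes were not tested. For Areg it was -0.50 in mature-DC-like, -1.16 in transitional-like and -1.93 in macrophage-like cells, and 0.44 in cDC1-like cells. The transitional-like and cDC1-like intervals hold 0. For Hbegf it was -0.13 in transitional-like and 0.28 in macrophage-like cells, both with intervals that hold 0, and the transitional-like value was below 0 in 7 of 14 alternatives (-1.71 to 0.77). For Nrg1 it was -0.12 in mature-DC-like and -0.061 in monocyte-like cells, and 0.17 in transitional-like and 0.44 in macrophage-like cells. The mature-DC-like direction was not that of its clusters, with cluster 3 at 0.06 and cluster 10 at 0.52, both with intervals that hold 0. Cluster 10, low in Nrg1, had 54 WT and 118 Clec7a-/- cells, and cluster 3 had 225 and 289. The macrophage-like clusters were at 0.42 (cluster 4) and -0.36 (cluster 7), also with intervals that hold 0. With 1 library per genotype a single library gives each direction.

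Ligand UMIs also lay in the barcodes that the filter removed, which the reported comparisons between classes did not use: 644 Areg, 315 Hbegf, 132 Nrg1, 55 Tgfa and 9 Ereg UMIs over both libraries. Tgfa had no UMI in the cells kept.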

How the results depend on the processing

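Of 491 alternative values over 46 results and 16 settings, 428 stayed within the counting interval of the reported value and 63 moved beyond it. Areg stayed lower in Clec7a-/- macrophage-like cells in 14 of 14 alternatives (-2.62 to -0.91, the latter with 10 principal components) and in mature-DC-like cells in 14 of 14 (-0.82 to -0.32), with -0.82 after integration by reciprocal PCA. In cDC1-like cells it was higher in 13 of 13 (0.29 to 1.31), but the interval of the reported value holds 0 (-0.20 to 1.12). In transitional-like cells it was lower in 13 of 14 and 0.48 with classes taken from each cell's own markers. With the WT class make-up the Areg ratio was -0.60 to -0.24, the latter at 10% mitochondrial UMIs. With each cell given the same weight, Hbegf was -0.79 in the whole library and -0.44 with the WT class make-up. The cause of these shifts was not tested. Leaving out doublets called by Scrublet changed nothing, since it called none; removing the 5% highest scores, removing the mitochondrial limit and leaving out the cell richest in a ligand were alternatives chosen after seeing the data. No paired analysis was possible because each genotype had 1 library, and leaving out a library leaves nothing to compare.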
